A study of Mus musculus with 2 samples.

Results

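Genes of cholesterol and fatty acid synthesis were followed in single spleen T cells of LatY136F mice with and without CD45. The set held 29 of the 22686 genes listed in the data: 7 of the mevalonate arm, 11 of the sterol arm, 4 regulators, 1 sterol carrier and 6 of the fatty acid arm. The genes were chosen by name and not by a cut on a measured value, though earlier results of these data were known. All 29 had counts in both libraries. Both groups carry LatY136F, a point mutation of LAT, the adaptor protein that passes on the T cell receptor signal. The control group has LatY136F alone, and the other group, LatY136F CD45-KO, also lacks CD45, the receptor phosphatase encoded by Ptprc that sets the activity of Src family kinases. Mice of both groups were 8 to 9 weeks old, and live CD3+CD5+ spleen cells were sorted and captured on the BD Rhapsody system for whole transcriptome libraries. There is 1 library per genotype. How many mice stand behind each library, and how either allele was made, are not stated in the labels. Genotype, mouse and capture therefore cannot be told apart.

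Cells make cholesterol from acetyl-CoA. The mevalonate arm turns it into isoprenoid units and the sterol arm closes and trims the rings. SREBP proteins (Srebf1, Srebf2) switch these genes on when membrane sterol is low, INSIG proteins hold SREBP back in the endoplasmic reticulum, and a parallel arm turns citrate into fatty acids that SCD enzymes desaturate. T cells are known to raise both arms when they are activated and divide, to supply new membrane.

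SREBP binds the sterol regulatory element in promoters of these genes together with NF-Y and Sp1, so promoters of 5 genes are shown. Hmgcs1 is shown as the only matched gene of the set with a hit to the sterol regulatory element string, Cyp51 and Msmo1 as sterol genes with ratios below 0, Sc5d as the sterol gene that was higher, and Idi1 as the gene with the largest cycling difference. Sequences are RefSeq's on GRCm38.p6 and run from 250 bases before to 50 after the gene's start, 5′ to 3′ on the gene's strand. Positions are chr13:119690101-119690400 (+) for Hmgcs1, chr5:4104648-4104947 (-) for Cyp51, chr8:64733529-64733828 (-) for Msmo1, chr9:42264251-42264550 (-) for Sc5d and chr13:8885356-8885655 (+) for Idi1. Capitals mark matches to the sterol regulatory element TCACNCCAC and to the NF-Y box CCAAT, on either strand.
Hmgcs1: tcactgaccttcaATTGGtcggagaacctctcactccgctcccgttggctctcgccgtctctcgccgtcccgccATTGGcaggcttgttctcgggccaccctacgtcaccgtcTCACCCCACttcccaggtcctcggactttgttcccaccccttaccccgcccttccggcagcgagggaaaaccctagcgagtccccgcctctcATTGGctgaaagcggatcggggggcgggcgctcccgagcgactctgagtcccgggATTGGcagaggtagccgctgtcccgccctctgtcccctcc
Cyp51: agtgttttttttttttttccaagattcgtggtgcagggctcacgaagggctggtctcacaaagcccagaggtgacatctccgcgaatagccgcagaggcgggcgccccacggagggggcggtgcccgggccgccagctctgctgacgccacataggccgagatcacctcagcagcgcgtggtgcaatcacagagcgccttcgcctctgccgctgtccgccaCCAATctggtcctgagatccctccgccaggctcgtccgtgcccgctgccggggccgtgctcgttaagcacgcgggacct
Msmo1: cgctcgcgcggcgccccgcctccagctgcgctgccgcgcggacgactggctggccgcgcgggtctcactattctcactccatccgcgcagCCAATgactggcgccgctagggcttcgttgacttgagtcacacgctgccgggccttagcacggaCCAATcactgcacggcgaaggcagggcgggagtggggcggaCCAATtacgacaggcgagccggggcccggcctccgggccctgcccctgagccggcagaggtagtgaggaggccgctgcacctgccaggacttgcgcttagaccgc
Sc5d: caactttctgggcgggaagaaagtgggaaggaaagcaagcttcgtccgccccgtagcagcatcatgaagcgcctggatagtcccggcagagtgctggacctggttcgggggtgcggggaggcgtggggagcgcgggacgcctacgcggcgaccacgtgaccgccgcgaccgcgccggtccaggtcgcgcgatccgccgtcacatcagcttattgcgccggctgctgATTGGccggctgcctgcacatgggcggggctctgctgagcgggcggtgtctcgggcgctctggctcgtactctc
Idi1: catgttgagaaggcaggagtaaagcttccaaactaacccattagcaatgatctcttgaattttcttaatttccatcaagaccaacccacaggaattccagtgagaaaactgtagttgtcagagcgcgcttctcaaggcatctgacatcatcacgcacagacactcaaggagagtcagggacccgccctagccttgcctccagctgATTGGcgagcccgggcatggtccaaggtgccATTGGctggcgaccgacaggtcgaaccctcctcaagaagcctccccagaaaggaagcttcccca

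RefSeq promoters were matched for 23 of the 29 genes; Sqle, Stard4, Fdft1, Fdps, Scd2 and Scd1 had no entry. Of the 23, 1 (Hmgcs1) held TCACNCCAC on either strand, against 1.44% of 27025 genes with a promoter in the table. Only this string was searched for the element, and no mismatch was allowed. A promoter without a match, such as that of Cyp51, may therefore still hold a variant of the element. The NF-Y box CCAAT stood in 21 of 23, all but Acaca and Acat2, against 41.1% of genes. The Acaca window, chr11:84195188-84195487, lies inside the gene, whose annotated start is at 84129672. Its lack of matches therefore does not describe the promoter at that start. GGGCGG, the Sp1 box, stood in 20 of 23, against 38.2%. The E-box CACGTG, which SREBP-1 can also bind, stood in 4 of 23 (Dhcr7, Hsd17b7, Insig1 and Sc5d), against 8.09%. Genes with several start sites were counted once if any of their promoters held the string, none of the 4 strings contains another, and the promoters were not matched for base composition. The Hmgcs1 promoter held 4 NF-Y boxes, Msmo1 3, Idi1 2, and Cyp51 and Sc5d 1 each.

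The LatY136F library held 13775 cells and 35300371 UMIs (counted RNA molecules), and the CD45-KO library 12845 cells and 29268453 UMIs, with medians of 2153 and 1991 UMIs per cell. After filtering and setting aside 22 and 73 non-T cells, 13725 and 12761 T cells were summed per library. All 8 T cell genes checked (such as Cd3e, Cd5 and Trac) had counts in the T cells of both libraries. They also had counts in the non-T cells set aside, so presence alone does not separate the classes. Summed, they stood at 9180 CPM in non-cycling T cells of LatY136F and 7281 of CD45-KO. In the non-T cells the sums were 2818 and 1720. Ptprc itself was at 1759 CPM (counts scaled to a fixed total of T cell counts per library) in LatY136F and 1177 in CD45-KO T cells, a log2 ratio of -0.58 (95% interval -0.60 to -0.56); transcripts of a disrupted gene can still be counted, so this level does not check the label. There were 223 cell indices in both libraries, and the set's median ratio was -0.28 without them and -0.26 with them. Cycling T cells were 21.3% of kept cells in LatY136F and 10.4% in the CD45-KO library, and ribosomal protein genes took 9.29% and 10.7% of T cell counts.

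Across T cells, most of the 29 genes stood at a lower level in the library without CD45. The log2 ratio of CPM, CD45-KO over LatY136F, was below 0 for 24 genes and above 0 for 5, with a median of -0.26; over all 12846 genes with at least 20 counts the median was 0.03 and 46.1% were below 0. Past 1.5-fold, 5 of the 29 were lower (Mvd, Fdps, Sqle, Msmo1 and Scd1) and 0 higher, where 8.8% of all genes were lower and 8.99% higher. The count was 2 with a limit of 10% mitochondrial counts and 1 with cells thinned to 1000 UMIs; Sqle and Msmo1 were then within 1.5-fold, and over the 10 alternatives their ratios ranged from -0.67 to -0.52 and from -0.65 to -0.52. The 95% counting interval lay below 0 for 19 genes and above 0 for 3 (Sc5d, Acaca and Fasn), against 25.4% and 30% of all genes. At a looser limit, at least 20% lower or 25% higher, 12 of the 29 were lower and 1 higher (Sc5d), where 16.6% and 19% of all genes were. Among the 18 genes of the set with at least 20 CPM in a library, 15 were below 0, 2 lower past 1.5-fold (Sqle and Msmo1) and 0 higher; of the 6667 genes at that level 48% were below 0, 3.81% lower and 1.89% higher. With 1 library per genotype no test was possible; intervals cover counting error only, treat UMIs as independent, and say nothing of how mice or captures vary. The levels compare one gene between libraries and not genes with each other, since they are not scaled by length.

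**Figure D1:**
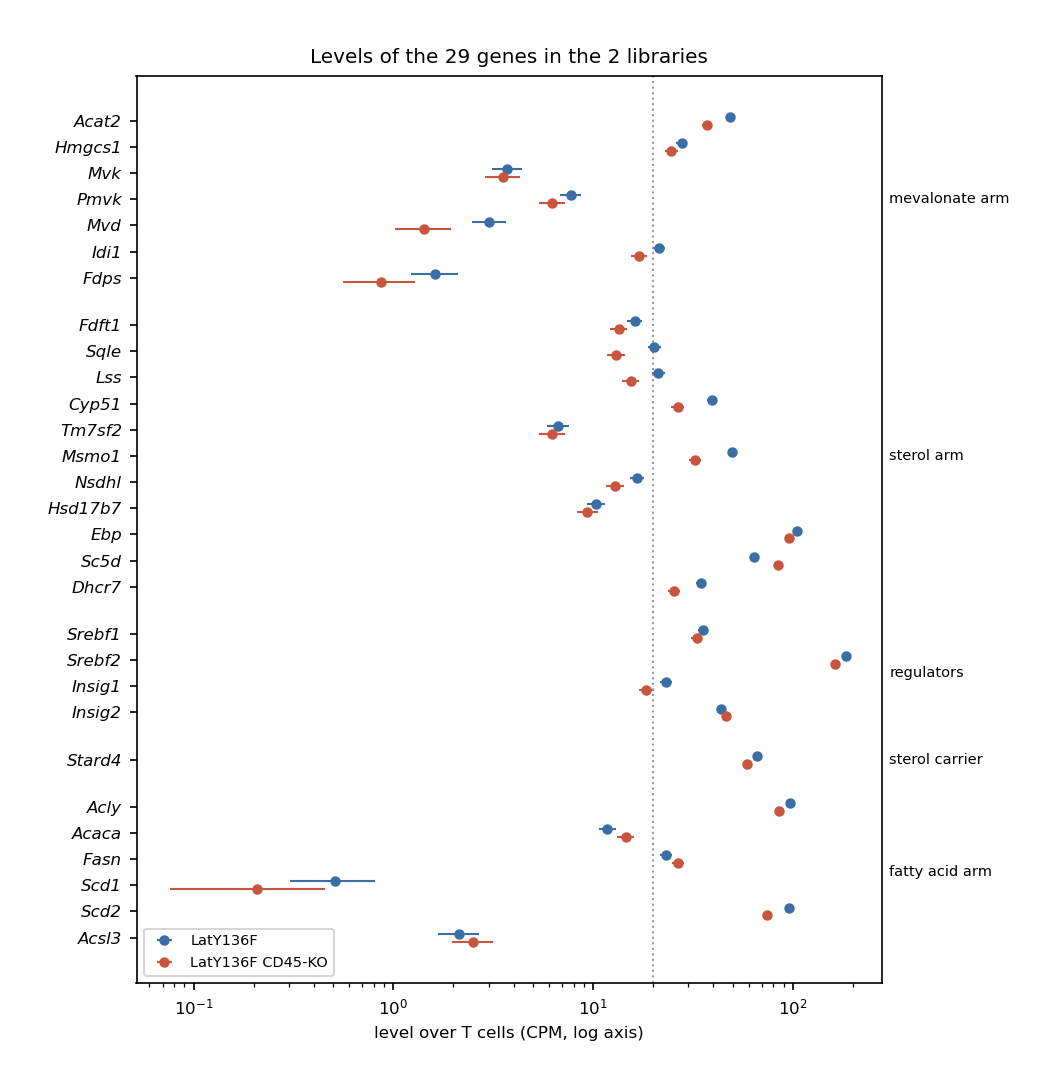
Level of each gene over T cells in CPM (log axis) in the LatY136F library (blue) and the CD45-KO library (red), grouped by role, with exact Poisson 95% intervals as bars; the dotted line marks 20 CPM. The red point lies left of the blue one for 24 of the 29 genes, and right of it for Sc5d, Insig2, Acaca, Fasn and Acsl3.

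Without CD45 all 7 genes of the mevalonate arm had the lower level over all T cells, where 46.1% of all genes did. In cycling cells taken alone 4 of the 7 did (45.4% of all genes). Their median log2 ratio was -0.33, against 0.03 over all genes, and their summed level was 113.7 CPM in LatY136F and 91.0 in CD45-KO. Acat2, which joins acetyl-CoA units at the entry, was at 48.5 CPM in LatY136F and 37.2 in CD45-KO, a log2 ratio of -0.38 (-0.49 to -0.27). Hmgcs1, the HMG-CoA synthase, was at 27.9 and 24.7 CPM, a log2 ratio of -0.18 (-0.32 to -0.04). Idi1, which interconverts the isoprenoid building blocks, was at 21.3 and 17.0 CPM, a log2 ratio of -0.33 (-0.49 to -0.16). With the mix of cell states held equal between the libraries the Idi1 ratio was 0.031. Mvd, the mevalonate diphosphate decarboxylase, had the lowest ratio of the arm at -1.08 (-1.64 to -0.55), from 106 UMIs in LatY136F (3.01 CPM) and 41 in CD45-KO (1.42 CPM). Fdps, which makes farnesyl diphosphate, rested on 57 and 25 UMIs (1.62 and 0.87 CPM) with a ratio of -0.90 (-1.64 to -0.20). The kinases Mvk and Pmvk, at 3.54 to 7.74 CPM, had ratios of -0.07 (-0.46 to 0.31) and -0.31 (-0.59 to -0.03). Mvd and Fdps each overlap an annotated protein-coding gene model (Gm20388 and Gm43738), so their reads may be shared.

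In the sterol arm 10 of 11 genes had ratios below 0, where 46.1% of all genes did, and 1, Sc5d, lay above 0. The arm's median log2 ratio was -0.37, against 0.03 over all genes. Msmo1, which removes methyl groups at carbon 4 of the sterol, was at 49.7 CPM in LatY136F and 32.4 in CD45-KO, a log2 ratio of -0.62 (-0.73 to -0.50), or 0.652 times the control level. Sqle, the squalene epoxidase, was at 20.3 and 13.0 CPM, a log2 ratio of -0.64 (-0.83 to -0.46). Cyp51, the lanosterol demethylase, was at 39.2 and 26.5 CPM, a log2 ratio of -0.56 (-0.69 to -0.44). These 3 enzymes lay apart from the control level by more than their counting intervals, and Cyp51 fell just short of 1.5-fold. Akap9 overlaps Cyp51 on the other strand and went the other way, from 85.1 to 113.2 CPM.

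Lss, which closes the sterol rings, was at 21.2 CPM in LatY136F and 15.4 in CD45-KO, a log2 ratio of -0.46 (-0.63 to -0.29). Dhcr7, a reductase of the last steps to cholesterol, was at 34.5 and 25.4 CPM, a log2 ratio of -0.44 (-0.58 to -0.31). Ebp, the sterol isomerase, differed little, at 104.9 and 95.6 CPM with a log2 ratio of -0.13 (-0.21 to -0.06). Sc5d, the desaturase that acts after Ebp and before Dhcr7, stood at 64.1 CPM in LatY136F and 84.0 in CD45-KO, a log2 ratio of 0.39 (0.31 to 0.47), or 1.31 times the control level. Sc5d thus went against its neighbours in the same pathway, in counts of 2253 and 2416 UMIs. The 4 other genes, Fdft1, Nsdhl, Tm7sf2 and Hsd17b7, were below 20 CPM in both libraries, with ratios of -0.37 to -0.10 and intervals below 0 for Fdft1 and Nsdhl. Fdft1 (-0.26) overlaps Ctsb on the other strand, which was at 255.0 CPM in LatY136F and 208.2 in CD45-KO, a log2 ratio of -0.29. Whether Ctsb reads enter the Fdft1 counts was not tested. Tm7sf2 overlaps Vps51 on the same strand, at 2.76 and 2.75 CPM. The arm's summed level was 383.5 CPM in LatY136F and 334.1 in CD45-KO, a log2 ratio of -0.20, to which Ebp and Sc5d gave the most counts.

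**Figure D2:**
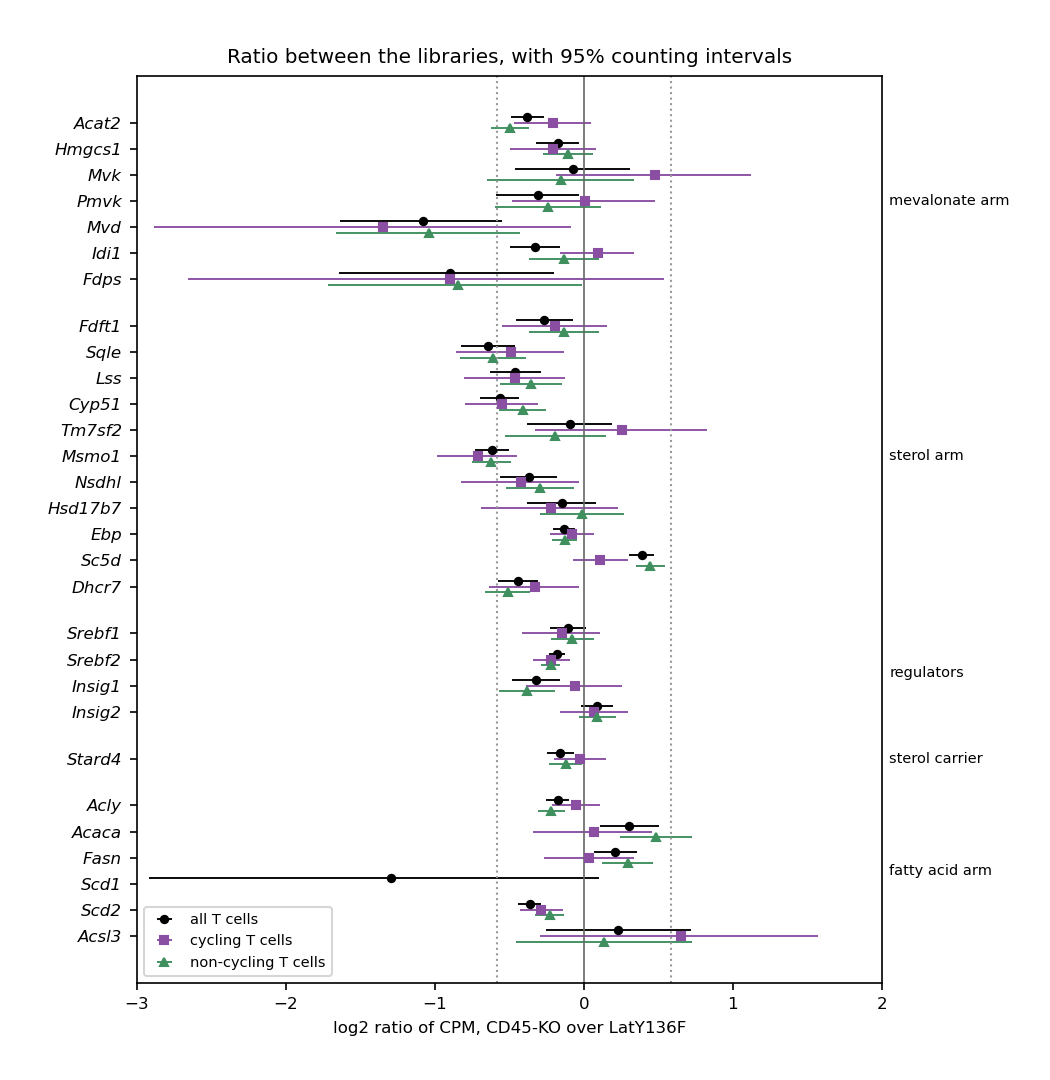
Log2 ratio of CPM, CD45-KO over LatY136F, with 95% counting intervals for all T cells (black circles), cycling (purple squares) and non-cycling T cells (green triangles); dotted lines mark 1.5-fold, and a gene under 20 counts in a cell class has no point there. Msmo1 lies at -0.62, -0.71 and -0.62 in the 3 classes, and Sc5d at 0.39, 0.11 and 0.44.

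The 4 regulators had a median log2 ratio of -0.14, and 0 of 4 passed 1.5-fold, where 8.8% of all genes were lower and 8.99% higher. Srebf2, the SREBP that drives cholesterol genes, was at 184.6 CPM in LatY136F and 162.7 in CD45-KO, a log2 ratio of -0.18 (-0.24 to -0.13). Srebf1, whose products include the SREBP of fatty acid genes, was at 35.5 and 33.0 CPM, a log2 ratio of -0.10 with an interval of -0.23 to 0.02 that includes 0. The INSIG genes parted: Insig1, itself an SREBP target, was at 23.1 and 18.5 CPM, a log2 ratio of -0.32 (-0.48 to -0.16). Insig2 was at 43.7 and 46.5 CPM, a log2 ratio of 0.09 (-0.02 to 0.20). SREBP activity is set by cleavage of the protein, which these transcript counts do not measure. Stard4, a carrier that moves cholesterol between membranes, was at 65.8 and 59.0 CPM, a log2 ratio of -0.16 (-0.25 to -0.07).

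The fatty acid arm split, with 3 genes lower, 3 higher and a median log2 ratio of 0.02, where 46.1% of all genes were lower. Its summed level was lower, at 229.9 CPM in LatY136F and 204.0 in CD45-KO, a log2 ratio of -0.17 (-0.22 to -0.12). Acly and Scd2 gave the most counts to this sum. Acly, which frees acetyl-CoA from citrate, was at 96.5 CPM in LatY136F and 85.5 in CD45-KO, a log2 ratio of -0.17 (-0.25 to -0.10). Scd2, a stearoyl-CoA desaturase, was at 95.9 and 74.5 CPM, a log2 ratio of -0.36 (-0.44 to -0.29). The enzymes that build the chain were on the other side. Fasn, the fatty acid synthase, was at 23.1 and 26.7 CPM, a log2 ratio of 0.21 (0.07 to 0.35). Acaca, the acetyl-CoA carboxylase before it, was at 11.8 and 14.6 CPM, a log2 ratio of 0.31 (0.11 to 0.51). Acsl3, a fatty acid activating enzyme, had 75 and 72 UMIs and a ratio of 0.23 (-0.26 to 0.72). Acaca overlaps the gene models Gm37391 on the same strand and Gm11437 on the other. Acsl3 overlaps Utp14b on the same strand, at 1.17 CPM in LatY136F and 1.32 in CD45-KO. Whether reads are shared in these overlaps was not tested. Scd1, the related desaturase of liver and fat, rested on 18 and 6 UMIs, and its ratio of -1.30 (-2.92 to 0.10) turned to 0.92 when the few non-T cells were included. Reads of Scd1 and Scd2 could be split between the near copies, which makes the low Scd1 value uncertain.

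Because the CD45-KO library held a smaller share of cycling cells, the ratios were also taken within each class. Cells were gated as cycling by at least 3 of 26 S and G2/M genes: 2929 cells in LatY136F and 1330 in CD45-KO. The median log2 ratio of the set was -0.17 in cycling cells (28 genes with at least 20 counts) and -0.20 in non-cycling cells (28 genes), against 0.04 and 0.03 over all genes. Of the 7 mevalonate genes 4 were below 0 and 3 above in cycling cells, with a summed log2 ratio of -0.09 (-0.23 to 0.05). In non-cycling cells all 7 were below 0, with a summed ratio of -0.33 (-0.42 to -0.25). Of all genes 45.4% and 46% were below 0 in these classes. In cycling cells 3 genes were lower past 1.5-fold (Mvd, Fdps and Msmo1) and 1 higher (Acsl3), where 5.57% and 8.93% of all genes were. Of these, Mvd rested on 36 and 6 UMIs, Fdps on 22 and 5, and Acsl3 on 27 and 18. The intervals of Fdps and Acsl3 included 0. In non-cycling cells 4 genes were lower (Mvd, Fdps, Sqle and Msmo1) and 0 higher, where 7% and 8.17% of all genes were. Intervals lay below 0 for 9 of 28 genes in cycling cells (15.6% of all genes) and 15 of 28 in non-cycling cells (22.6%). They lay above 0 for 0 (20.3%) and 3 (26.4%). Genes of non-T cells (B cell, plasma cell and myeloid) summed to 6.71 CPM in cycling cells of LatY136F and 29.2 of CD45-KO, and to 12.8 and 14.1 in non-cycling cells; their part in these ratios was measured over T cells, where the set's median was -0.24 without cells holding any such UMI.

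Msmo1 kept its difference in both classes: in cycling cells 47.2 CPM in LatY136F and 28.8 in CD45-KO, and in non-cycling cells 51.0 and 33.2. Sqle was at 23.6 and 16.8 CPM in cycling cells and 18.5 and 12.2 in non-cycling cells. Sc5d was at 64.0 and 87.1 CPM in non-cycling cells (0.44, 0.35 to 0.54) and at 64.1 and 69.3 in cycling cells (0.11, -0.07 to 0.29). The cycling value joins 0.34 (0.11 to 0.57) in S-biased and -0.42 (-0.79 to -0.05) in G2/M-biased cells. For Acaca and Fasn the log2 ratios were 0.48 (0.24 to 0.73) and 0.29 (0.12 to 0.47) in non-cycling cells, and 0.07 (-0.34 to 0.46) and 0.04 (-0.27 to 0.34) in cycling cells; the intervals of the classes overlapped, and their difference was not tested. Idi1 was near even in both classes, with ratios of 0.09 (-0.16 to 0.34) in cycling and -0.14 (-0.37 to 0.10) in non-cycling cells.

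Cycling cells were compared with non-cycling cells inside each library for the 24 genes with an expected count of at least 20 in both. Idi1 showed the largest difference: in LatY136F it was at 36.1 CPM in cycling and 13.6 in non-cycling cells, a log2 ratio of 1.41 (1.20 to 1.63), and in CD45-KO at 38.6 and 12.3 CPM, a ratio of 1.64 (1.38 to 1.91). Past 1.5-fold in both libraries, 4 of 24 were higher in cycling cells (Idi1, Pmvk, Fdft1 and Scd2) and 0 lower, where 6.04% and 1.92% of 9507 genes were. Pmvk, the phosphomevalonate kinase, had log2 ratios of 0.75 and 0.99 in LatY136F and CD45-KO, Fdft1, the squalene synthase, 0.65 and 0.59, and Scd2 0.66 and 0.60. All 4 genes lay higher in cycling cells of both libraries by more than their counting intervals. Sqle, Lss, Cyp51 and Stard4 also had intervals above 0 in both, which makes 8 of 24 (18.6% of all genes), and Srebf2 was the 1 gene with intervals below 0 in both (20.7% of all genes), at -0.25 in each. Cycling cells were deeper, with median UMIs of 3270 and 3013.5 against 2001 and 1933. Each cell was also thinned to 1000 UMIs and gated again, which left 1093 cycling cells in LatY136F and 403 in CD45-KO. Part of the cells gated as cycling before then counted as non-cycling, so thinned ratios do not measure depth alone. In G2/M-biased cells the thinned Idi1 ratio over the non-cycling cells was 1.52 in LatY136F and 1.62 in CD45-KO, from 19 and 6 UMIs. In S-biased cells the thinned Idi1 ratio was 0.92 in LatY136F and 1.99 in CD45-KO, from 12 and 10 UMIs. Thinned Scd2 ratios were 0.65 and 0.65 in G2/M-biased cells, but 0.48 and -0.10 in S-biased cells, from 55 and 13 UMIs. For Fdft1 the thinned ratios were 0.93 and 0.94 in G2/M-biased and 0.22 and 0.57 in S-biased cells, from 4 to 12 UMIs each. For Pmvk they were 0.67 and 0.14 in G2/M-biased and 1.22 and 2.09 in S-biased cells, from 1 to 7 UMIs each. Between G2/M-biased and S-biased cycling cells 1 of 21 genes, Acat2, was lower past 1.5-fold in both libraries (3.62% of all genes): 27.7 against 46.8 CPM in LatY136F and 18.96 against 41.6 in CD45-KO. None was higher, where 4.23% of all genes were. G2/M-biased cells were deeper (median UMIs 3958 against 3022 in LatY136F), and with cells thinned to 1000 UMIs the Acat2 order turned in LatY136F: over non-cycling cells its ratio was -0.19 in G2/M-biased cells and -0.38 in S-biased cells, from 25 and 21 UMIs.

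**Figure D3:**
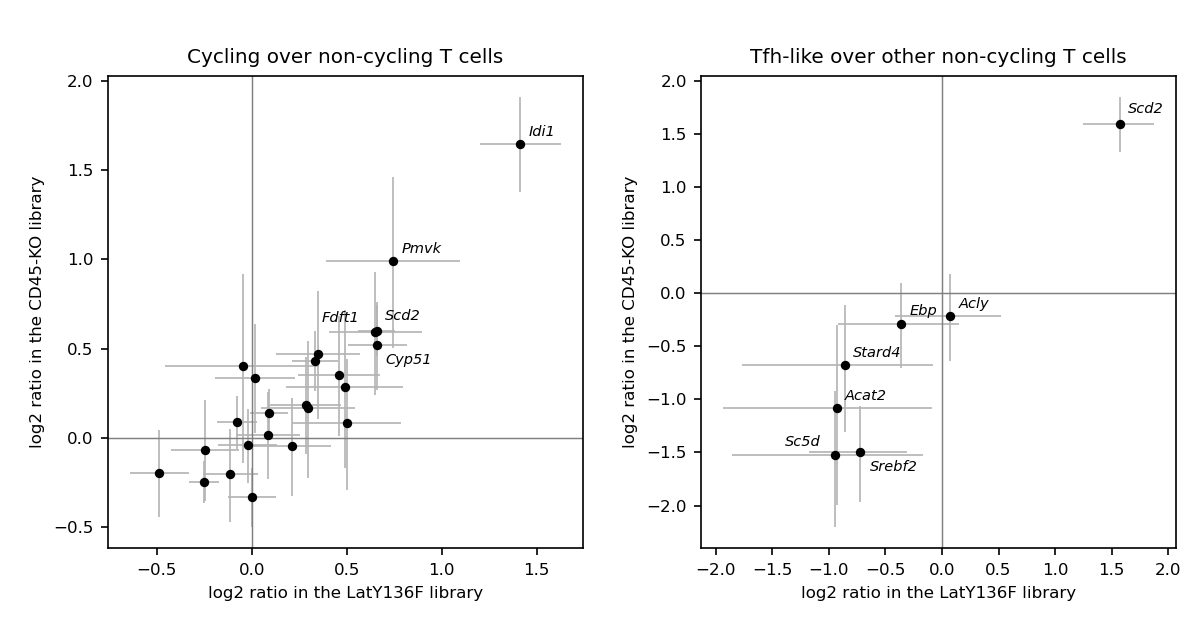
Log2 ratio of CPM between cell classes within the LatY136F library (x axis) and within the CD45-KO library (y axis), cycling over non-cycling T cells on the left (24 genes) and Tfh-like over other non-cycling T cells on the right (7 genes); bars are 95% counting intervals. Idi1 stands apart on the left at 1.41 and 1.64, and Scd2 on the right at 1.57 and 1.59.

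Cells with at least 3 of 8 follicular helper genes (such as Cxcr5, Bcl6 and Il21) are called Tfh-like; T follicular helper cells are the T cells that help B cells in germinal centres. They numbered 127 in LatY136F and 225 in CD45-KO. Scd2 was far higher in them than in other non-cycling T cells: 230.0 against 77.5 CPM in LatY136F, a log2 ratio of 1.57, and 194.2 against 64.3 in CD45-KO, a ratio of 1.59. The counting intervals of these levels did not overlap within either library: 184.7 CPM was the lower bound in LatY136F Tfh-like cells and 163.1 in CD45-KO ones. The counts were 89 UMIs from 52 cells in LatY136F and 138 UMIs from 87 cells in CD45-KO, with at most 5 and 7 UMIs in any cell. Of the 7 genes with an expected count of at least 20, 1 was higher past 1.5-fold in both libraries and 4 lower, where 5.79% and 10.3% of all 3523 genes were.

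The 4 lower genes in Tfh-like cells were Srebf2, Sc5d, Acat2 and Stard4. Srebf2 was at 118.9 CPM in Tfh-like and 196.6 in other non-cycling cells of LatY136F, a log2 ratio of -0.73, and at 60.5 and 170.7 in CD45-KO, a ratio of -1.50. Sc5d had ratios of -0.94 in LatY136F and -1.52 in CD45-KO, Acat2 -0.93 and -1.08, and Stard4 -0.86 and -0.68, from 11 to 25 UMIs each. Thinned to 1000 UMIs and gated again, Tfh-like cells numbered 94 in LatY136F and 157 in CD45-KO, with 1 to 14 UMIs of each of these 4 genes. The thinned ratio was -0.36 for Sc5d in LatY136F and -0.09 for Stard4 in CD45-KO, both within 1.5-fold. Thinned Srebf2 (-0.76 and -0.95) and Acat2 (-0.79 and -0.98) were past 1.5-fold in both libraries. Insig2, with 29 and 55 UMIs, was at 74.9 and 77.4 CPM in Tfh-like cells against 43.4 and 45.8 in the others, but its expected count was under 20. Non-T gate genes (B cell, plasma cell and myeloid) summed to 28.4 and 45.0 CPM in Tfh-like cells against 12.8 and 14.1 in non-cycling T cells as a whole, with 4 of the 12 genes detected in Tfh-like cells of each library. Without cells holding any such UMI, Scd2 was at 221.5 CPM in LatY136F Tfh-like cells against 77.5, and at 188.4 in CD45-KO against 63.8; the non-T cells themselves were at 43.4 and 35.5 CPM. Tfh-like cells had median UMIs of 2821 and 2964, and with cells thinned to 1000 UMIs the Scd2 ratio was 1.64 in LatY136F and 1.83 in CD45-KO, from 23 and 34 UMIs.

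Within Tfh-like cells, 15 of 17 genes with at least 20 counts had ratios of CD45-KO over LatY136F below 0 (46.6% of all genes there), with a median log2 ratio of -0.50 against 0.03 over all genes. Past 1.5-fold, 7 were lower (Srebf2, Cyp51, Msmo1, Acat2, Fdft1, Tm7sf2 and Dhcr7) and 0 higher, where 9.69% and 13.4% of all genes were. Srebf2 had the largest counts of the 7, 46 and 43 UMIs, and went from 118.9 to 60.5 CPM, a log2 ratio of -0.97 (-1.61 to -0.34). The intervals of Cyp51 and Msmo1 also lay below 0, which makes 3 of 17 (5.07% of all genes), and those of the 4 others included 0. The size of the Srebf2 difference varied with the cells taken. In Tfh-like cells with a Cxcr5 UMI, Srebf2 was at 117.3 CPM in LatY136F and 87.7 in CD45-KO, from 18 and 27 UMIs. Without Tfh-like cells holding a UMI of a non-T gate gene, it was at 121.8 and 56.4 CPM. After thinning, 10.6% (5.22% to 18.7%) of LatY136F and 8.28% (4.48% to 13.7%) of CD45-KO Tfh-like cells held an Srebf2 UMI.

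The remaining states carried few differences of their own. Gated by transcripts, the non-cycling cells fell into interferon-stimulated, Gzmb-positive, activated, naive-like, Il1rl1-positive and unmatched cells, and in none of these 6 was any gene of the set past 1.5-fold from the other non-cycling cells in both libraries. Few genes of any kind were: 2.93% higher and 0.722% lower in interferon-stimulated cells, 0.0787% and 0.275% in Gzmb-positive, 0.145% and 0.334% in activated, 0.121% and 0.693% in naive-like, 0.0538% and 0.925% in Il1rl1-positive and 0.0675% and 0.326% in unmatched cells. The set had 2 genes with an expected count of at least 20 in interferon-stimulated cells, 10 in Gzmb-positive cells and 23 or 24 in the 4 others. In Il1rl1-positive cells Acat2 had counting intervals above 0 in both libraries, and Scd2 below 0. That was 1 of 24 genes each way, against 2.16% and 3.03% of all genes. In unmatched cells Acat2 had intervals below 0 in both, 1 of 23 (1.47% of all genes). No gene of the set did so in the other states compared here. Naive-like cells (at least 2 of 5 genes, such as Ccr7, Lef1 and Tcf7) made up 13.9% of LatY136F and 32.2% of CD45-KO cells, and Gzmb-positive cells 8.56% and 2.03%. The set's median ratio between libraries was below 0 in 9 of 10 states, from -0.50 in Tfh-like to -0.16 in the unmatched cells, and 0.09 in cycling cells with equal S and G2/M scores (207 and 55 cells). Cyp51 had a ratio below 0 in 10 of 10 states, Msmo1 in 9 of 10 with intervals below 0 in 8, and Srebf2 in 8 of 10. Sc5d was below 0 in 4 of 10 and Insig2 in 3 of 10. By state, 46.5% (G2/M-biased) to 51.7% (interferon-stimulated) of all genes were below 0. The states split the same 2 libraries, so they are not repeats of the comparison. Srebf2 ranged from 118.9 CPM (Tfh-like) to 214.7 (Il1rl1-positive) across LatY136F states, and from 60.5 (Tfh-like) to 197.1 (Gzmb-positive) across CD45-KO states.

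**Figure D4:**
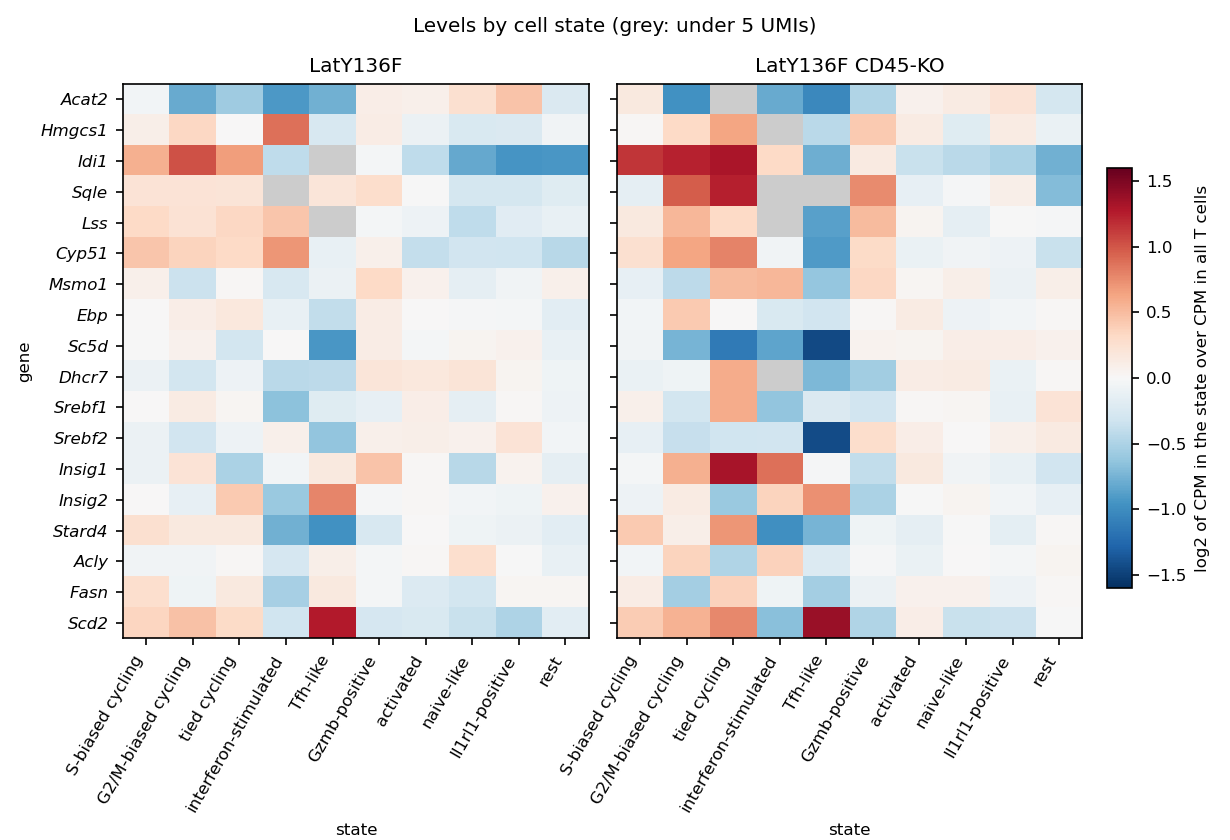
Log2 of the CPM of each of 18 genes in a cell state over its CPM in all T cells of the same library (red higher, blue lower, grey under 5 UMIs), LatY136F left and CD45-KO right. The Tfh-like column is red for Scd2 and Insig2 and blue for Srebf2, Sc5d and Stard4 in both libraries, and the S-biased and G2/M-biased columns are red for Idi1.

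Lipid genes outside the set were read from 3 lists. Of 15 genes linked to SREBP or related synthesis, 13 had at least 20 counts, with a median log2 ratio of -0.06, and 1 was lower past 1.5-fold (Tmem97) and 0 higher, where 8.8% and 8.99% of all genes were. Tmem97, a sterol-responsive membrane protein, was at 13.2 CPM in LatY136F and 8.44 in CD45-KO, a log2 ratio of -0.65 (-0.88 to -0.42). Acss2, which makes acetyl-CoA from acetate, and Lpin1, a phosphatidate phosphatase, were higher, with ratios of 0.34 (0.22 to 0.47) and 0.21 (0.07 to 0.35). Rdh11, a retinol dehydrogenase, was at 31.6 and 27.5 CPM, with a log2 ratio of -0.20 (-0.34 to -0.07), and Mbtps2, a protease that cleaves SREBP, at 27.4 and 30.1, a ratio of 0.13 (0.00 to 0.27).

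Genes of sterol efflux, storage and the LXR receptors went both ways. Of 9 with at least 20 counts the median log2 ratio was -0.06, with 1 higher past 1.5-fold (Abca1, at 1.59 and 2.57 CPM) and 0 lower, against 8.99% and 8.8% of all genes. Abcg1, a sterol exporter switched on by LXR, was at 32.6 CPM in LatY136F and 44.6 in CD45-KO, a log2 ratio of 0.45 (0.34 to 0.57). Mylip, a ubiquitin ligase switched on by LXR, was at 50.9 and 63.2 CPM, with a log2 ratio of 0.31 (0.22 to 0.41). Soat1, which stores cholesterol as esters, and Lpcat3, which remodels phospholipids, were lower at -0.32 (-0.42 to -0.23) and -0.33 (-0.43 to -0.22). Among 14 genes of fatty acid oxidation the median was -0.09 and 0 were past 1.5-fold, where 8.8% of all genes were lower and 8.99% higher. Acsl4, a fatty acid activating enzyme, had a ratio of 0.44 (0.31 to 0.57), Etfdh, an electron carrier of the mitochondrion, 0.30 (0.18 to 0.43), Cpt1a, the gate of fatty acid entry into mitochondria, -0.32 (-0.37 to -0.26), and Slc25a20, the carnitine carrier, -0.29 (-0.41 to -0.17).

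**Figure D5:**
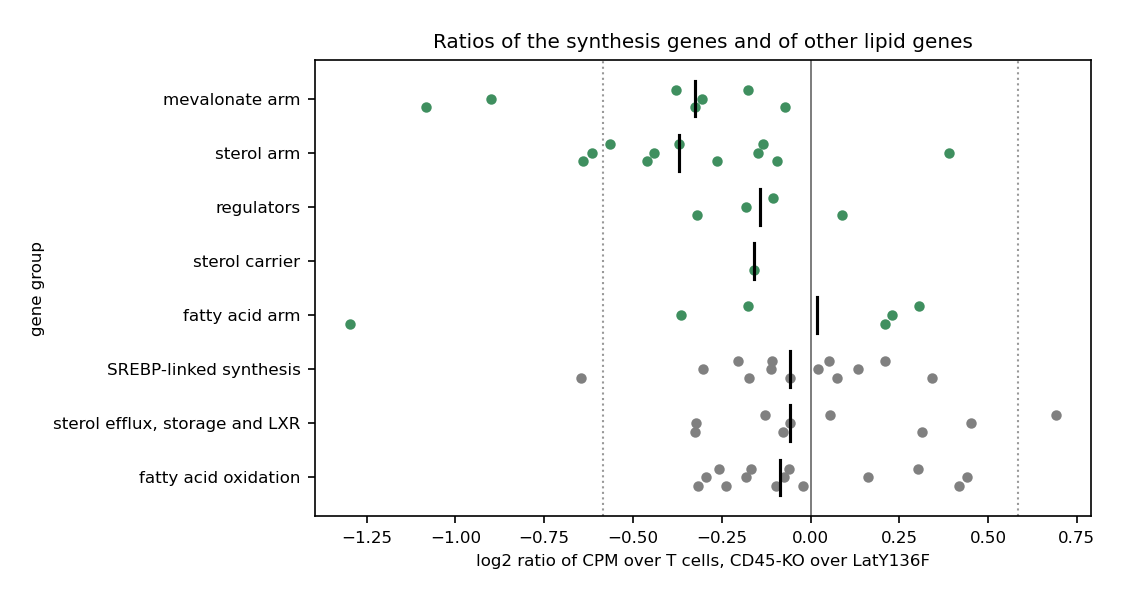
Log2 ratio of CPM over T cells, CD45-KO over LatY136F, for each gene with at least 20 counts, by role for the synthesis genes (green) and for 3 lists of other lipid genes (grey); black bars are medians and dotted lines mark 1.5-fold. Medians are -0.33 in the mevalonate arm and -0.37 in the sterol arm, 0.02 in the fatty acid arm, and -0.06, -0.06 and -0.09 in the other lists.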

How the data were processed

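The deposited files hold counts of UMIs per cell and gene from the BD whole transcriptome pipeline 1.9.1 on GRCm38 with GENCODE M19, per the file headers; the series' design text names a later pipeline version and the submitters' processing notes name GRCm39, and the headers were followed. The authors' pipeline corrected UMI errors, and the counts are not normalized. Genes missing from a file were counted as 0. A filter of 200 detected genes and 25% mitochondrial counts removed 28 and 11 cells. Doublets were neither called nor removed. States were gated in a fixed order on genes outside the set: non-T (at least 2 genes), cycling, interferon-stimulated, Tfh-like, Foxp3-positive, Gzmb-positive, Cd8-positive, activated, naive-like and Il1rl1-positive. Foxp3-positive (73 and 24 cells) and Cd8-positive cells (33 and 41) were left out by state, since a state needed at least 50 cells per library.

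Counts were summed per library and state and given as CPM with exact Poisson 95% intervals. Ratios have exact conditional binomial 95% intervals for a pair of Poisson counts, which were tested on simulated data. Over T cells the typical interval of a gene of the set reached 0.16 (median, log2) to either side. Contrasts between states used genes with an expected count of at least 20 in both libraries. Named with both levels and ratio were genes of the set with at least 20 CPM in a library, and up to 4 of each other list with the largest ratios at that level; Tmem97 and Abca1 were added after seeing their values. Some genes of the SREBP-linked list are not reported here, and its count and median leave them out. The genes and lists were chosen with earlier results of these data known. Gene overlaps come from GENCODE M21, and the labels do not say whether counting used strand. Python 3.11.15, numpy 2.4.6, scipy 1.17.1 and pandas 2.3.3 were used. Alternatives were other cell filters, gates, totals, weights, folds and thinning. States were gated again after thinning, so a thinned state did not hold the same cells.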

Additional observations from a re-analysis of the deposited data

Results flagged for a closer look

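Sc5d differed between states in the direction of its ratio between the libraries, and the difference between states was not tested. Its log2 ratio, CD45-KO over LatY136F, was 0.34 in S-biased cycling cells, 0.47 in activated, 0.45 in naive-like, 0.43 in Il1rl1-positive and 0.58 in unmatched cells, each with a counting interval above 0. In G2/M-biased cycling cells it was -0.42 (-0.79 to -0.05), from 315 UMIs in LatY136F and 77 in CD45-KO.

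Insig1 also had counting intervals on both sides of 0, and this too was not tested. Its ratio was 1.497 in cycling cells with equal S and G2/M scores, from 14 and 12 UMIs, -1.17 in Gzmb-positive cells, from 90 and 9 UMIs, and -0.49 in Il1rl1-positive cells, from 135 and 98 UMIs.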

How the results depend on the processing

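No paired analysis was possible because each genotype has 1 library, and for the same reason no replicate could be left out. Over 10 alternatives the set's median ratio over T cells stayed below 0, from -0.30 (centred on the median of all genes) to -0.17 (mix of states held equal). The 5 genes lower past 1.5-fold became 2 with at most 10% mitochondrial counts (Mvd and Fdps) and 1 with cells thinned to 1000 UMIs (Mvd); both settings leave Scd1 under 20 counts. With non-T cells included 1 gene was higher, Scd1, whose ratio reversed to 0.92. Idi1 reversed to 0.031 with the mix of states held equal. At the looser limit (20% lower or 25% higher) 12 genes were lower and 1 higher. With a cycling gate of at least 2 genes, 0 genes were higher in cycling cells, and 2 were lower and 1 higher in non-cycling cells. The fatty acid median was 0.21 with non-T cells included, 0.20 with thinned cells and 0.21 for genes with at least 100 counts, and the mevalonate median was -0.16 with the mix of states held equal. In 36 of 44 comparisons of a median or count of the set, the alternative stayed within the limit set for it. Depth limits single states most: Fdps and Scd1 were under 20 counts in all 10 states, and thinned values could not be given for interferon-stimulated cells or cycling cells with equal scores, since fewer than 50 CD45-KO cells remained.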
